A study of Mus musculus with 64 samples.

Results

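The copines are a family of calcium-dependent, phospholipid-binding proteins, and 9 of their genes (Cpne1 to Cpne9) were followed here in the striatum and cerebral cortex of Huntington's disease model mice. The genes were taken by symbol from a table of 48795 genes, and all 9 had enough counts to be tested in both tissues. The family was selected on a measured value, the lower Cpne9 counts in Q140 than in wild-type striatum, so every copine value of that contrast below is a description without a test.

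A copine carries a pair of C2 domains, which bind membrane lipids when calcium rises, followed by a domain related to the von Willebrand factor A domain that binds other proteins. Copines move from the cytosol to the plasma membrane in response to calcium. In the brain, Cpne6 (copine 6, also called N-copine) is known as a neuronal, postsynaptic calcium sensor of dendritic spines, whereas Cpne1 and Cpne3 are expressed in many tissues.

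The study used C57BL/6 mice aged 6 months in 4 genotypes: wild type, Polq+/- (1 copy of the gene for polymerase theta, an enzyme of DNA end joining), Q140 (1 copy of the mouse huntingtin gene Htt carrying an inserted expanded CAG tract) and Q140 Polq+/-. Each genotype had 8 mice, 4 of either sex, and every mouse gave 1 library per tissue, so replicates were separate animals and there were 64 libraries. Q140 is a knock-in, and the labels name no Cre or transgene. The protocol in the labels describes dissection of striatum only, although the tissue label of 32 libraries is cortex.

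Total gene counts ran from 28.7 to 40.6 M per library in striatum and from 30.9 to 40.1 M in cortex. Polq had a striatal mean of 3.10 ± 0.504 CPM (read counts relative to the library total, scaled between libraries by TMM; SD, n = 8) in wild type, 3.05 ± 0.402 in Q140, 1.64 ± 0.637 in Polq+/- and 1.33 ± 0.926 in Q140 Polq+/-. The lowest striatal values, down to 0.184 CPM, came from Polq+/- male 3 and Q140 Polq+/- females 3 and 4 and male 3, which are left out together below as the mice of low Polq. Total Htt (202.7 ± 27.6 CPM in wild-type striatum, 194.5 ± 5.80 in Q140) does not show the CAG tract and so does not check the Q140 label. The tissue labels fitted their markers: all 15 spiny projection neuron markers were higher in wild-type striatum than in wild-type cortex, and 11 of 12 cortical excitatory neuron markers were lower. Some striatal libraries stood apart. Wild-type male 2 had 122.4 CPM of summed cerebellar granule cell markers against a group median of 1.001, Polq+/- female 3 had 1366 CPM of summed choroid plexus markers against 32.7, and wild-type male 3 had the lowest Htt, 135.2 CPM.

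The 9 genes lie on 8 chromosomes, none of them chromosome 16 (Polq) or 5 (Htt). Cpne9 (ENSMUSG00000030270, plus strand, chr6:113282307-113305627 on GRCm38) and Cpne2 (ENSMUSG00000034361, plus strand, chr8:94532990-94570531) are the members that the results turn on, and the bases just before their starts are shown for that reason. They are from RefSeq (GRCm38.p6, plus strand), at chr6:113282057-113282306 for Cpne9 and chr8:94532778-94532989 for Cpne2. Capitals mark the GC box, GGGCGG on either strand.
Cpne9: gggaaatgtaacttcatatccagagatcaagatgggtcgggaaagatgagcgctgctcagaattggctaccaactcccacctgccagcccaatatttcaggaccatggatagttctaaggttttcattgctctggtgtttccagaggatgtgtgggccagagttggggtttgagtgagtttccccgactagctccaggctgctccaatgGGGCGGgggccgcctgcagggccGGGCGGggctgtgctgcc
Cpne2: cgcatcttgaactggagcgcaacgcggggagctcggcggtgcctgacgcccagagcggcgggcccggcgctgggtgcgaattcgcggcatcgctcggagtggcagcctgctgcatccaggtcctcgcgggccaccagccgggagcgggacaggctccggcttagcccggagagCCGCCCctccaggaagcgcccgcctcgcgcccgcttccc

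The Cpne9 stretch was 56.4% G and C over 250 bases and the Cpne2 stretch 74.5% over 212 bases, against a median of 52.4% over 32851 RefSeq promoters of 250 bases. Cpne9 had 2 GC boxes and 3 CCAAT boxes (CCAAT on either strand), and the Cpne2 stretch had 1 GC box. The full 250-base RefSeq window of Cpne2, which runs past the gene start given above, had 2 GC boxes. A GC box was present in 32.7% of all those promoters and a CCAAT box in 33.8%, so neither set of letters is rare. Promoter entries were matched for 6 members, Cpne1, Cpne2, Cpne4, Cpne5, Cpne8 and Cpne9.

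In wild-type mice both tissues expressed all 9 genes, but in a different order. On the deposited FPKM scale, which is per length and so allows genes to be compared, Cpne5 led in striatum with a mean of 29.2, followed by Cpne6 at 12.7, Cpne2 at 7.01, Cpne8 at 4.47, Cpne4 at 4.16, Cpne3 at 2.40, Cpne9 at 2.16, Cpne7 at 2.07 and Cpne1 at 0.635. Ranges over the 8 mice overlapped between Cpne8 and Cpne4, and between neighbours from Cpne3 to Cpne7. In cortex the order by mean FPKM was Cpne6 at 27.1, Cpne9 at 18.2, Cpne5 at 9.39, Cpne4 at 7.46, Cpne8 at 5.54, Cpne2 and Cpne7 both at 3.79, Cpne3 at 2.10 and Cpne1 at 0.645. There Cpne5 overlapped with Cpne4, and Cpne2 with Cpne7. Cpne9 was therefore the second most abundant copine of cortex and among the least abundant of striatum.

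**Figure D1:**
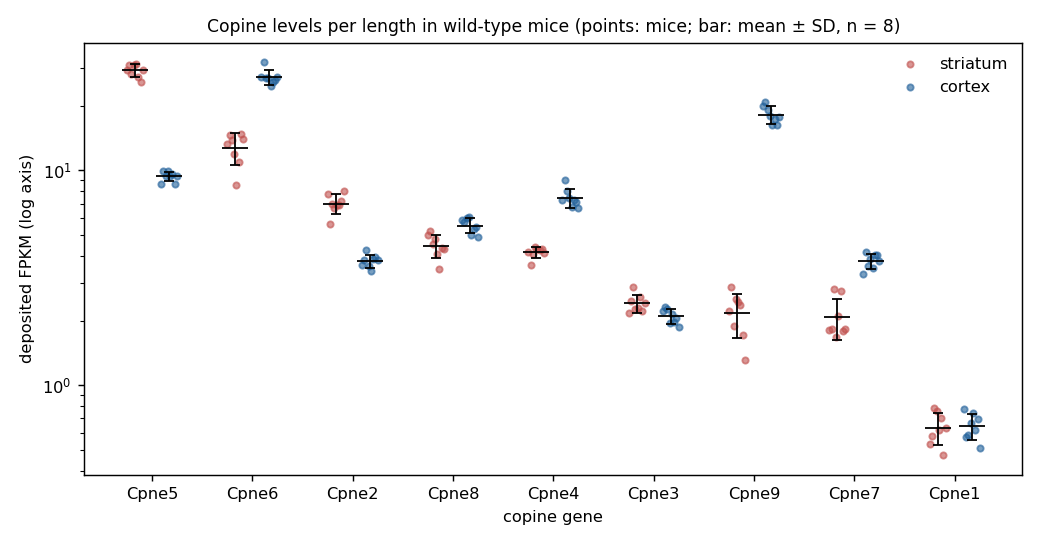
Deposited FPKM of each copine gene (log axis) in wild-type striatum (red) and cortex (blue), 1 point per mouse, with the mean ± SD over 8 mice. Cpne5 is highest in striatum (29.2) and Cpne6 in cortex (27.1), and Cpne9 has the widest gap between tissues.

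Between wild-type tissues, 8 of 9 copines differed at an adjusted p under 0.05 (edgeR quasi-likelihood test, Benjamini-Hochberg adjustment), where 77.2% of the 19091 genes tested did. Of these, 3 were higher in striatum (39.1% of all genes were) and 5 were lower (38.1% of all genes were). No plate column held libraries of both tissues, so tissue and plate column cannot be told apart here. Cpne5 had 354.6 ± 29.9 CPM in striatum and 114.9 ± 5.69 in cortex (log2 difference 1.61, SE 0.0397, adjusted p = 3.33e-30), and the ranges did not overlap. Cpne2 was 0.86 higher in striatum and Cpne3 0.17 higher on the log2 scale. Lower in striatum were Cpne6 (-1.13), Cpne7 (-0.91), Cpne4 (-0.86) and Cpne8 (-0.34), of which Cpne8 had overlapping ranges. Cpne9, whose striatal level was part of its choice, was at 17.2 ± 4.203 CPM in striatum and 146.1 ± 13.3 in cortex, an 8.64-fold difference. Cpne1 did not pass (-0.05, 95% interval -0.25 to 0.15). Its counts are uncertain, because 84.1% of its exon bases are shared on the same strand with Rbm12 and Gm28036.

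Of the 9 copines, Cpne9 had the largest difference between Q140 and wild-type striatum. Wild-type striatal libraries had 10.3 CPM at the lowest, 18.2 at the median and 23.2 at the highest. In Q140 striatum the lowest, median and highest were 3.51, 4.08 and 5.17 CPM. The groups did not overlap, and all 8 Q140 libraries lay below every wild-type library. The fitted log2 fold change was -2.02 (SE 0.140), a 4.06-fold lower level, and it was the 17th lowest of 18270 genes tested. Leaving out wild-type males 2 and 3 and Polq+/- female 3 gave -2.02.

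The separate mice labelled Polq+/- gave similar Cpne9 values. Polq+/- striatum had 9.39 CPM at the lowest, 14.5 at the median and 21.6 at the highest, and Q140 Polq+/- striatum had 3.65, 4.12 and 5.02. These groups did not overlap either, and the fitted log2 fold change was -1.80 (SE 0.140), or 3.48-fold lower. This value was also known when the family was chosen, so it carries no test and is no independent support. Both sexes showed low Cpne9: Q140 carriers averaged 4.30 ± 0.528 CPM in females and 4.13 ± 0.519 in males (n = 8 each), against 17.9 ± 3.57 and 14.2 ± 3.75 in non-carriers.

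Bulk tissue cannot tell fewer cells of a type from less RNA per cell. All 15 spiny projection neuron markers were lower in Q140 than in wild-type striatum (median log2 fold change -0.50, against 0.00183 over all genes; 15.2% of all genes were lower), and none was at 0. Their summed level ran from 18250 to 22230 CPM in wild type and from 11890 to 13810 in Q140. Set against this sum, Cpne9 stood at 0.840 ± 0.177 CPM per 1000 CPM of spiny neuron markers in wild type and at 0.330 ± 0.0526 in Q140. Cpne9 was lower in proportion than the summed markers. The same ratio was 81.5 ± 7.45 in wild-type cortex, so it does not place Cpne9 in spiny neurons. How much of the Cpne9 change follows the markers was not tested. Of the cortical excitatory markers, which label the tissue where Cpne9 is high, 4 of 11 tested rose in Q140 striatum and 0 fell, where 16.9% of all genes rose and 15.2% fell. Their sum had a median of 283.4 CPM in wild type and 313.4 in Q140. It ran from 270.9 to 335.4 CPM in wild type, where the highest library was male 2, and from 300.3 to 323.1 in Q140.

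In striatal Q140 against wild type, where 16.9% of all genes rose and 15.2% fell, some markers of other cells also moved. Lower were 8 of 9 endothelial and mural markers (sum 274.8 to 298.8 CPM in wild type, 222.9 to 253.8 in Q140), 6 of 8 microglia markers (305.4 to 331.3 and 273.6 to 308.2) and 3 of 8 oligodendrocyte markers (4850 to 6502 and 4657 to 5726). Of the markers that split spiny neurons, 4 of 5 for the indirect pathway fell, and of 8 for the direct pathway 5 fell and 2 rose. A single marker fell among 11 of interneurons, 8 of astrocytes and 5 of oligodendrocyte precursors, and a single one rose among 7 thalamic and septal ones. Both tested cerebellar granule cell markers fell, with wild-type male 2 the high library. The choroid plexus sum ran from 17.8 to 33.4 CPM in wild type and from 27.3 to 44.8 in Q140. What part these cells have in the copine values was not tested.

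Cpne2, which encodes copine 2, also had less RNA in Q140 striatum. Its lowest, median and highest values were 18.4, 22.4 and 25.6 CPM in wild type and 14.9, 17.7 and 19.2 in Q140, with all 8 Q140 libraries below the wild-type median and the ranges overlapping. The log2 fold change was -0.36 (SE 0.0658), given as a description. In the separate mice labelled Polq+/-, the lowest, median and highest values were 21.4, 23.8 and 24.9 CPM in Polq+/- and 15, 16.4 and 21.2 in Q140 Polq+/-. Here the ranges did not overlap, and Cpne2 fell by 0.41 on the log2 scale (SE 0.0656, adjusted p = 5.10e-06). Without the mice of low Polq it fell by 0.31 (adjusted p = 0.00195).

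In all, 3 of 9 copines (Cpne9, Cpne2 and Cpne7) passed an adjusted p of 0.05 for Q140 against wild type in striatum, beside 32.1% of all 18270 genes tested, and nothing is read from that count because the choice used this contrast. All 3 were lower (15.2% of all genes were) and 0 were higher (16.9% of all genes were). The 9 copines had a median log2 fold change of 0.01. For Q140 Polq+/- against Polq+/-, 2 of 9 passed (Cpne9 and Cpne2), beside 31.4% of all genes, a share near that of the family, and the median was -0.00298 against 0.00506 over all genes.

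Cpne7 was the least steady of the 3. Wild-type libraries ran from 9.12 to 14.8 CPM with a median of 9.79, and Q140 libraries from 8.20 to 10.8 with a median of 8.91. Wild-type female 3 (14.8) and male 2 (14.4), the library with cerebellar markers, were the highest. The log2 fold change of -0.27 (SE 0.0879) became -0.23 without wild-type males 2 and 3 and Polq+/- female 3. Cpne7 did not pass in the Polq+/- mice (-0.12, 95% interval -0.30 to 0.06, adjusted p = 0.328).

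The remaining copines did not pass in Q140 striatum against wild type, and their values are a description. Cpne5, the most abundant one there, was at 354.6 ± 29.9 CPM in wild type and 355.1 ± 9.53 in Q140 (log2 0.01, 95% interval -0.06 to 0.08). Cpne6 was at 54.7 ± 8.91 and 52.7 ± 5.65 CPM. The fitted log2 differences were 0.24 for Cpne1 (95% interval 0.03 to 0.44) and 0.16 for Cpne8 (0.02 to 0.30). They were 0.11 for Cpne4 (0.005 to 0.21) and 0.06 for Cpne3 (-0.03 to 0.145). In the Polq+/- mice these members lay between -0.04 (Cpne5) and 0.11 (Cpne1), and none passed.

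**Figure D2:**
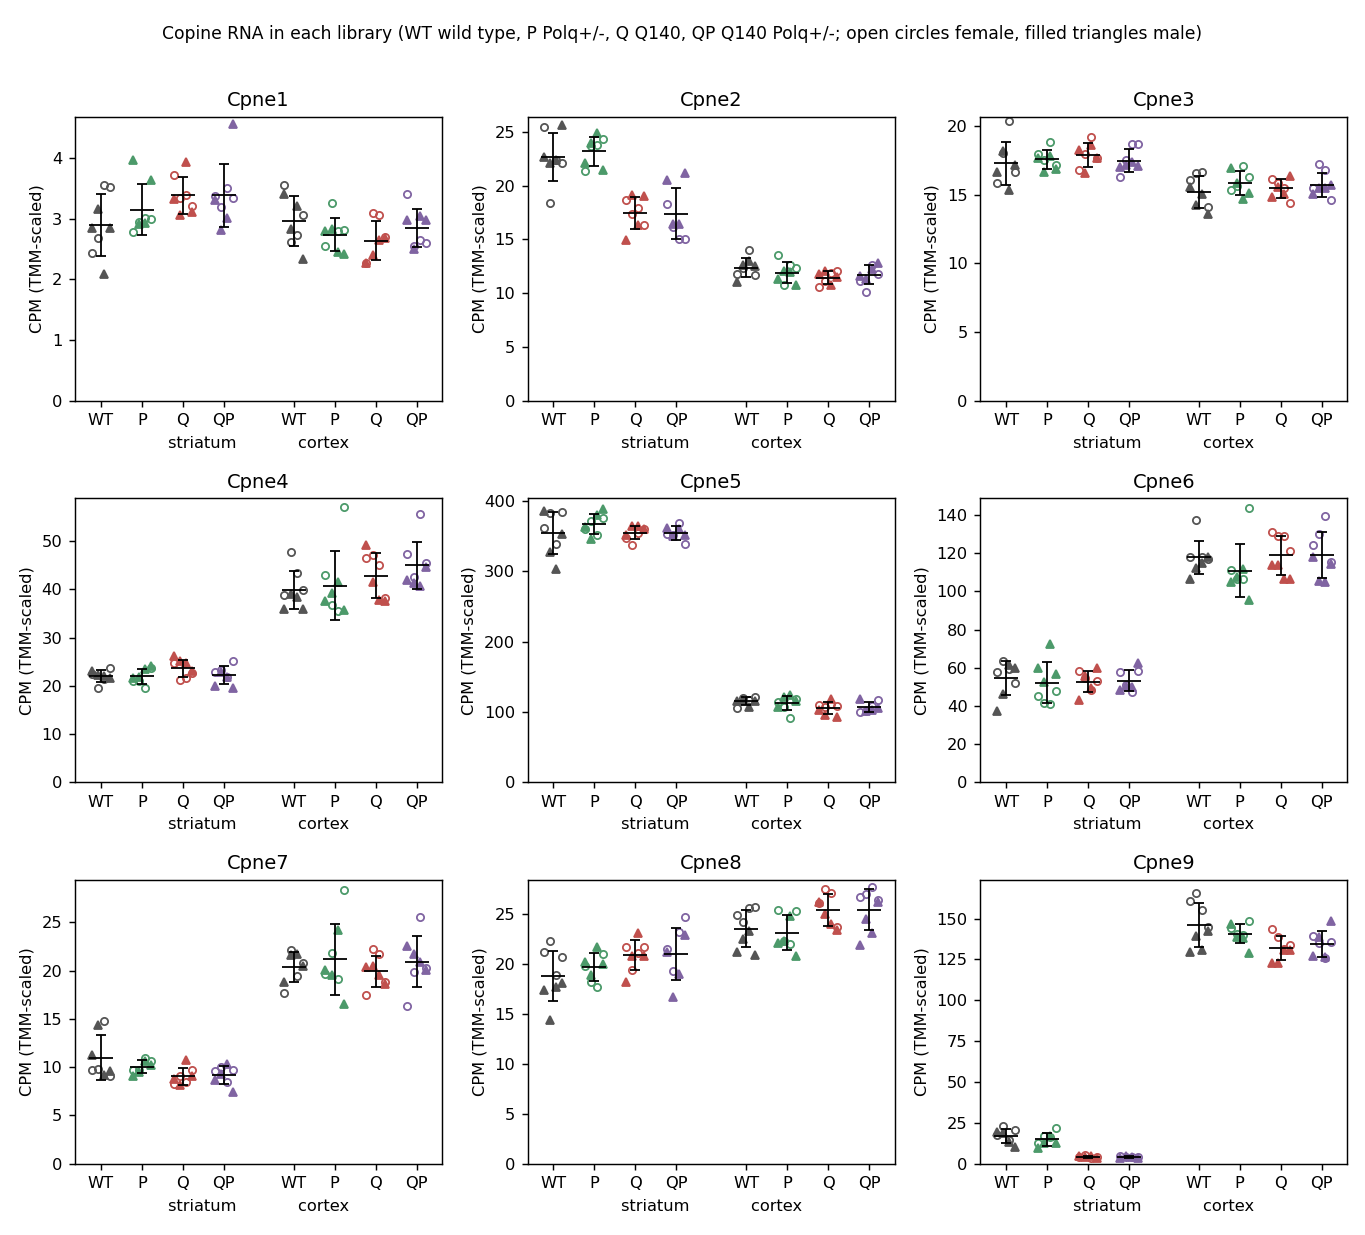
CPM of each copine in every library, by genotype and tissue (open circles females, filled triangles males; bars mean ± SD, n = 8; each axis starts at 0). In striatum, Cpne9 of both Q140 genotypes sits between 3.51 and 5.17 CPM and both other genotypes lie above 9, whereas Cpne5 stays near 355.

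As a share of summed copine FPKM in striatum, Cpne9 made up 3.33% ± 0.760 in wild type and 0.857% ± 0.134 in Q140, and Cpne2 10.8% ± 1.21 and 8.73% ± 0.588. Cpne5 held 45.1% ± 2.68 and 47.4% ± 1.34. The family sum was 64.9 ± 2.30 FPKM in wild type and 64.9 ± 2.16 in Q140. On this scale the totals lay close together, while Cpne9 went from the seventh place to the last, 0.554 FPKM. In wild type its range overlapped those of both neighbours, Cpne3 and Cpne7. The last place in Q140 is below Cpne1 (0.780 FPKM), whose counts are uncertain. The FPKM carry no TMM scaling. Over all genes their median log2 fold change (0.1 added to FPKM) was 0.0602, against 0.00183 by edgeR. Whether the totals are equal after such scaling was not tested.

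**Figure D3:**
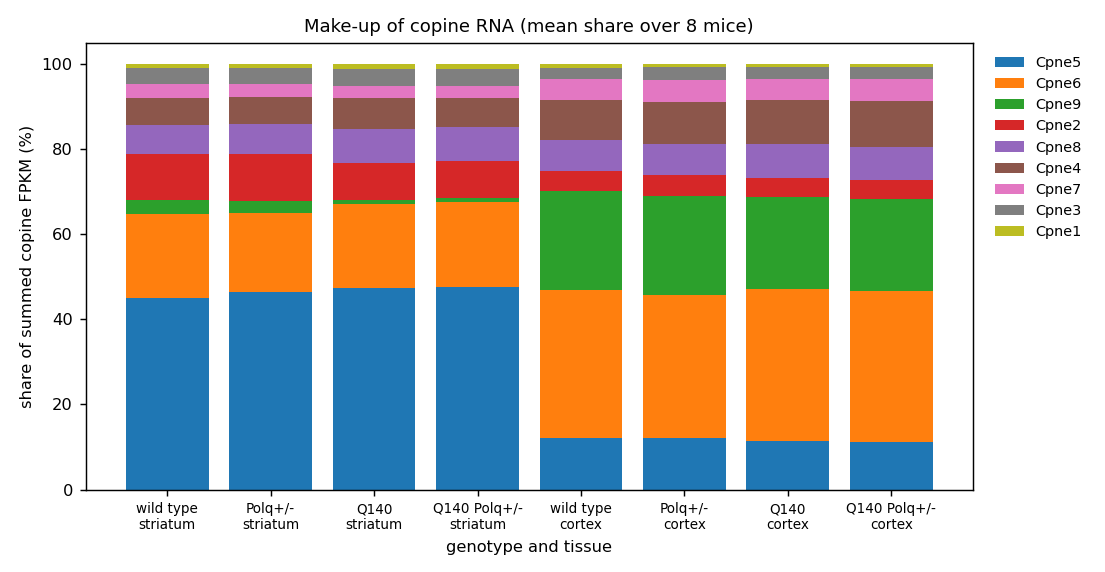
Share of summed copine FPKM held by each gene (%), mean over 8 mice, in the 4 genotypes of each tissue. The Cpne9 segment of striatum shrinks from 3.33% in wild type to 0.857% in Q140 and is largest in cortex.

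In cortex, 0 of 9 copines passed for Q140 against wild type (edgeR; 4 at an unadjusted p under 0.05, 1 by DESeq2, 0 by limma on FPKM), beside 0.348% of the 18116 genes tested. Cpne9 had 129.7 CPM at the lowest, 143.5 at the median and 165.6 at the highest in wild type, and 122.7, 131.4 and 143.9 in Q140. The ranges overlapped, and the log2 fold change was -0.15 (95% interval -0.22 to -0.07, adjusted p = 0.0866). DESeq2 gave -0.15 with an adjusted p of 0.028. By edgeR the 9 log2 fold changes lay between -0.17 (Cpne1) and 0.11 (Cpne8). Besides Cpne9, an unadjusted p under 0.05 was seen for Cpne8, Cpne5 (-0.12) and Cpne2 (-0.11). For Q140 Polq+/- against Polq+/-, 0 of 9 passed in cortex (edgeR; 1 unadjusted, 0 by DESeq2 and 0 on FPKM), beside 0.337% of all genes, and Cpne9 changed by -0.06 (adjusted p = 0.587).

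A comparison added after seeing the data set all 16 Q140 carriers against all 16 non-carriers in cortex. There 2 of 9 copines passed, beside 2.46% of all genes. Cpne8 rose by 0.12 on the log2 scale (SE 0.0297, adjusted p = 0.0162; 25.4 ± 1.78 against 23.3 ± 1.77 CPM). Cpne9 fell by 0.11 (SE 0.0270, adjusted p = 0.0255; 133.3 ± 7.47 against 143.5 ± 10.4 CPM). Both had overlapping ranges. Neither passed in a fit without the sex term (adjusted p = 0.0699 for Cpne8 and 0.0725 for Cpne9), and Cpne9 did not pass without the mice of low Polq (-0.08, adjusted p = 0.162) or on FPKM.

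**Figure D4:**
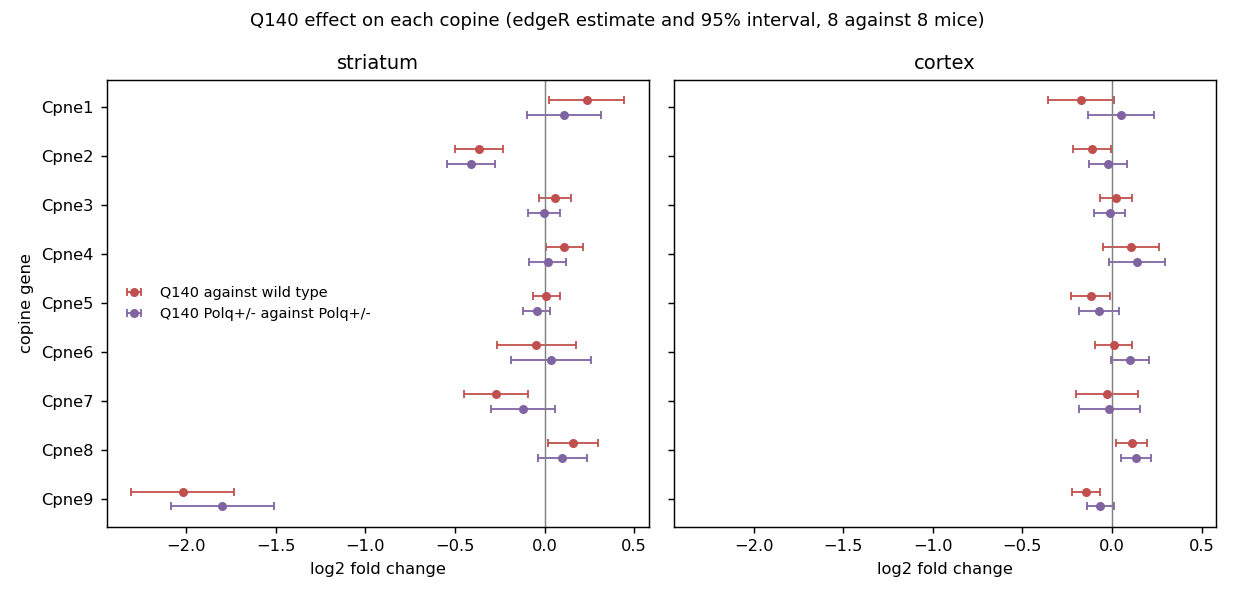
Fitted log2 fold change of each copine with Q140 in striatum and cortex (points; bars are 95% intervals, 8 against 8 mice), for the mice with both Polq copies (red) and those labelled Polq+/- (purple). Cpne9 lies near -2 and Cpne2 near -0.4 in striatum, and no cortical value exceeds 0.2 in size.

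For Cpne2 the difference with Q140 was larger in striatum than in cortex. Among the mice labelled Polq+/-, striatum minus cortex was -0.40 for Cpne2 (SE 0.0802, adjusted p = 0.000207), and 2 of 9 copines passed, beside 19.3% of all genes. This comparison was also added after seeing the data. The other was Cpne9, at -1.72 (SE 0.158), given without a test.

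No copine passed the test for the Polq label. In striatum, 0 of 9 passed for Polq+/- against wild type (0.0493% of all genes did), for Q140 Polq+/- against Q140 (0.0547%) and for the difference in the Q140 effect by Polq label (0%). The same held in cortex, with 0 of 9 in each and 0.0442%, 0.0552% and 0% of all genes. In all of these comparisons, 0 members had an unadjusted p under 0.05 in edgeR and 0 passed by DESeq2 or on FPKM. For Cpne9 in striatum, Q140 Polq+/- minus Q140 was 0.01 (95% interval -0.31 to 0.33), and Polq+/- minus wild type was -0.21 (-0.47 to 0.04).

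Sex made a small difference in cortex. Of 9 copines, 2 were higher in females than in males, and 0 were lower, where 1.15% of all genes differed, 0.839% higher and 0.315% lower. Cpne6 was at 123.6 ± 11.3 CPM in females and 109.7 ± 5.93 in males (n = 16 each; log2 0.17, adjusted p = 0.0103), and Cpne8 at 25.5 ± 1.72 and 23.2 ± 1.73 (0.13, adjusted p = 0.0135). In striatum 0 of 9 passed (edgeR; 2 unadjusted, 0 by DESeq2 and 0 on FPKM), beside 0.367% of all genes. The 2 were Cpne9, 0.23 higher in females (adjusted p = 0.464), and Cpne8, 0.10 higher (adjusted p = 0.557). The Q140 effect did not pass as different between sexes for any copine in striatum or cortex (0 of 9 in each, 0 unadjusted, 0 by DESeq2 and 0 on FPKM), beside 0% of all genes in both.

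Genes of related families and reported partners moved both ways in Q140 striatum against wild type. The synaptotagmin and double C2 genes include calcium sensors of vesicle release, though not every member is one. Of 20 tested, 4 rose and 6 fell (median -0.03), where 16.9% of all genes rose and 15.2% fell. The smallest p-values were those of Syt16 (-0.28, adjusted p = 2.23e-08), Syt9 (-0.71, 3.59e-08), Syt12 (-0.31) and Syt10 (-0.49). Of 11 annexins, another family that binds membranes with calcium, 2 rose (Anxa9 by 0.50 and Anxa5 by 0.12) and 2 fell (Anxa3, -0.24, and Anxa4, -0.28). Of 10 reported copine partners, 1 rose (Ywhag, 0.26) and 1 fell (Ntrk2, the BDNF receptor, -0.19), whereas Erbb2 (-0.18) and Cdc42bpb (0.07) did not pass. These 4 of 11 annexins and 2 of 10 partners stand beside 32.1% of all genes that passed.

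Over the 8 means of genotype and tissue, the genes most like Cpne9 were Crh, which encodes corticotropin-releasing hormone, and Wnt4, a secreted Wnt ligand, with root mean square differences of 0.263 and 0.265 on the centred log2 CPM scale. The next, Cplx3, Mapk11 and Kcng4, were at 0.546 to 0.575. Between the means of Q140 and wild-type striatum, log2 CPM differed by -1.19 for Crh and -1.44 for Wnt4. These means were part of the likeness measure, so the falls follow from how the genes were picked and are no independent support. Nearest to Cpne2 were Ppp3ca (0.0237), a calcineurin subunit, Ngef (0.0363) and Rgs7bp (0.0369). Cpne5 was closest to Gad2 (0.0442), a GABA-synthesizing enzyme, A230103J11Rik (0.0455) and Sertad4 (0.0469). Cpne4 was nearest to Vash1 (0.0330), Tceal1 (0.0430) and Pacsin3 (0.0459), and Cpne7 to Ntm (0.0292), Serpinb9 (0.0346) and Gm37090 (0.0346).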

How the data were processed

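RNA was extracted with RNeasy and made into TruSeq stranded libraries, per the labels' protocols, whose wording on dissection names striatum only. Reads were processed with STAR 2.7.5c, SAMtools 1.10 and HTSeq 0.12.3 on GRCm38 (mm10), per the submitters' processing notes. Strandedness in HTSeq was not given in the sources used here. Raw counts per gene and FPKM were deposited by the authors, and the FPKM equalled the counts up to a factor of length and depth (relative spread at most 6.94e-09 per gene, among genes whose lowest count was at least 10).

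The members and gene lists were chosen with earlier results of these data known. All 9 members were tested in every comparison, but not every member is named in each. Also named are Polq and Htt, and up to 4 genes of each list of related genes, by smallest p in striatal Q140 against wild type. Marker lists are given by their counts. For members whose group means span at least 1 (log2), the 3 most alike genes (5 for Cpne9) with a mean of at least 1 CPM are named.

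The test was edgeR's robust quasi-likelihood F test on counts (edgeR 4.0.16, R 4.3.3) with TMM scaling, filterByExpr and sex in the model. Each tissue was fitted with its 32 libraries at once, and comparisons of tissues used both sets, with a term for each mouse. P-values were adjusted over all genes tested (Benjamini and Hochberg) and called under 0.05. CPM are TMM-scaled, and limma log2 values used FPKM plus 0.1 or 1. The alternatives were DESeq2 1.42.0, its size factors in edgeR, limma 3.58.1 on FPKM, no filter, a fit of just the 2 groups, omitting sex, a replicate block, the plate column, an adjusted p under 0.1, and leaving out libraries that stood apart or mice of low Polq. On simulated counts for striatal Q140 against wild type the edgeR step was checked over 18270 genes. Gene positions came from GENCODE M21. The result of 1 further gene list and the genes most like Cpne6 are not reported here.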

Additional observations from a re-analysis of the deposited data

Results flagged for a closer look

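Single libraries stood apart from the other 7 of their group for some copines (Dixon's test, 95%): 5 of the 72 sets of 8 libraries examined, where chance gives about 1 in 20. Polq+/- female 4 in cortex was the highest of its group for Cpne4 (57.03 CPM, the others 35.47 to 42.99) and for Cpne6 (143.4 CPM, the others 95.55 to 111.9). Q140 Polq+/- female 3 in cortex was high for Cpne4 (55.62 CPM, the others 40.67 to 47.38), wild-type female 2 in cortex for Cpne6 (137.2 CPM, the others 106.7 to 118.2), and Q140 Polq+/- male 4 in striatum for Cpne1 (4.553 CPM, the others 2.809 to 3.498).

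The change with Q140 in the mice labelled Polq+/- differed between tissues for Cpne2 (striatum minus cortex -0.4003 on the log2 scale). For Cpne9 the same difference was -1.724, which is a description because its striatal fall was known when the family was chosen.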

How the results depend on the processing

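Over all alternatives tried, 1418 of 1440 member values stayed on their side of the threshold, 8 no longer passed and 14 newly passed. Of the 1418, 54 changed sign, and none of these 54 passed as reported or under the alternative (lowest adjusted p 0.224 there). No value that passed reversed. Of 178 counts of copines passing, 166 stayed within 1.5 times the reported count. For Q140 against wild type in striatum (3 reported), 5 passed at an adjusted p under 0.1 and 6 by limma on log2(FPKM + 0.1) or log2(FPKM + 1), where Cpne1, Cpne3, Cpne4 and Cpne8 newly passed and Cpne7 did not (adjusted p = 0.0908 and 0.0875). The FPKM carry no TMM scaling. With 0.1 added, their median log2 fold change over all genes for this striatal contrast was 0.0602, against 0.00183 by edgeR. Cpne7 also missed with only the 2 groups compared (adjusted p = 0.0589). For Q140 against wild type in cortex (0 reported), 1 passed at an adjusted p under 0.1, by DESeq2, and with only the 2 groups compared. For all carriers against non-carriers in cortex (2 reported), 1 passed on either FPKM scale, 0 without the sex term and 1 without the mice of low Polq. For the Q140 effect in striatum minus cortex over all mice (2 by edgeR), 4 passed on either FPKM scale, with Cpne1 and Cpne5 added. For that difference the median over all genes was 0.0491 on log2(FPKM + 0.1), against -0.00354 by edgeR. The causes were not tested.

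Same-numbered mice showed no shared deviation at the median (median r -0.031 over 48 pairs in striatum, 7 over 0.1, and -0.037 in cortex, 2 over 0.1). Such a correlation cannot exclude that the mice are paired, and some same-numbered mice share the first part of their identifier. With the replicate block, 3 copines passed for Q140 against wild type and 2 for Q140 Polq+/- against Polq+/- in striatum, where Cpne2 was at -0.42 (adjusted p = 9.92e-06), and the block changed no call. At its depth of 2.89 CPM in wild-type striatum, Cpne1 had an SE of 0.103 (log2) for Q140 against wild type.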
